A study of Mus musculus with 2 samples.

Results

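The genes of the cytosolic ribosomal proteins were described in an ATAC-seq series on mouse bone marrow-derived macrophages (BMDMs). Members were the protein-coding RefSeq genes on chromosomes 1 to 19 whose symbol is Rpl or Rps with a number, or Rplp0, Rplp1, Rplp2 or Rpsa, without the Rps6k kinases and the symbols that end in -ps with or without a number. The rule found 85 of the 20661 protein-coding genes on these chromosomes. Of these, 73 encode standard components of the cytosolic ribosome, 43 of the large and 30 of the small subunit, and are called core members here. The other 12 are paralogs, retrogenes or, in the case of Rps19bp1, a protein that is not part of the ribosome.

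In ATAC-seq the transposase Tn5 cuts and tags open DNA, and sites with many cuts are called as peaks. The cells were wild-type and had been grown from bone marrow in medium with 20 ng/ml of the growth factor M-CSF. One group, 1 library, was left untreated, and the other, also 1 library, was given 100 ng/ml R848 for 2 h. R848 (resiquimod) is a small molecule agonist of Toll-like receptor 7. The sources used here give no strain, sex, age or number of animals. With 1 library a group there is no replicate error, no test was possible, and a peak present in 1 list and absent from the other is a description of these libraries.

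Ribosomal proteins assemble with ribosomal RNA into the small subunit, which reads the mRNA, and the large subunit, which forms peptide bonds. Their genes are short, are expressed in nearly every cell, and belong to the housekeeping genes with promoters rich in CpG. Many of their transcripts begin with a C and a run of pyrimidines, the terminal oligopyrimidine tract through which mTOR signalling controls their translation. Members of the ETS family, such as GABP, and YY1 are known to bind many of their promoters.

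Promoter sequences of 8 members are shown, from 220 bases before to 30 after the gene start. Peaks described below lie on these stretches, except at Rpl13, which had no peak. The sequences come from RefSeq on GRCm38.p6, the assembly also named mm10, and read 5′ to 3′ on the gene's strand. Capitals mark matches to the ETS core CCGGAAG or the YY1 core AAGATGG on either strand, and pyrimidine runs of at least 8 bases that begin with C within 20 bases of the start. Rpl15 had the strongest R848 peak of all members, Rpl27a and Rps21 were among the strongest in the untreated list, Rps6 is the member phosphorylated by S6 kinase, Rps10 and Rps3 had an R848 peak only, Rpl11 had an untreated peak only, and Rpl13 had none.
Rpl15 (chr14:18270957-18271206, minus strand): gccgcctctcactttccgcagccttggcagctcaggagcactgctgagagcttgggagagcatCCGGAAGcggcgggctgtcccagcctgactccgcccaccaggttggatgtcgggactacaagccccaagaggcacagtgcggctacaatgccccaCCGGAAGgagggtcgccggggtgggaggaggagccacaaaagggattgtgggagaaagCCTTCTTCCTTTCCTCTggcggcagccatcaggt
Rpl27a (chr7:109518975-109519224, plus strand): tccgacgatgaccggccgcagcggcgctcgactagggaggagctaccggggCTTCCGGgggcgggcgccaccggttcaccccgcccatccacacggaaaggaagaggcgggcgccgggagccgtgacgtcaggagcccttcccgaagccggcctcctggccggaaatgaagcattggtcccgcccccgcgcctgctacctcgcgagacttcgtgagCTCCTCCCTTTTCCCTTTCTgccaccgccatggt
Rps21 (chr2:180257159-180257408, plus strand): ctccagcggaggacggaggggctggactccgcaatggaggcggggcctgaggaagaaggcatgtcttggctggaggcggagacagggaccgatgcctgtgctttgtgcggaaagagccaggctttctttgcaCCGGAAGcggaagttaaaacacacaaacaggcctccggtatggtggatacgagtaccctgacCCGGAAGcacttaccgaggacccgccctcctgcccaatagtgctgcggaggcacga
Rps6 (chr4:86857338-86857587, minus strand): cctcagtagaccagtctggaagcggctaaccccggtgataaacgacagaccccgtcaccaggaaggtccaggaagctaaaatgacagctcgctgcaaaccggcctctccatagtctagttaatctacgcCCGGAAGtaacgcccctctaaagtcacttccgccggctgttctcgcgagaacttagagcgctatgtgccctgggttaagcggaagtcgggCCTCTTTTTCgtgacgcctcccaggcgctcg
Rps10 (chr17:27635215-27635464, minus strand): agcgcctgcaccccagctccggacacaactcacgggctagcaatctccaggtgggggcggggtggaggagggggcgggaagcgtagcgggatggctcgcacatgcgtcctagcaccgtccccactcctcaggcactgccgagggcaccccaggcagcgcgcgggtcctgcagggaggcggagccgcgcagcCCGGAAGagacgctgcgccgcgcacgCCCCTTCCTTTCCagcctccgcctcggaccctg
Rps3 (chr7:99483680-99483929, minus strand): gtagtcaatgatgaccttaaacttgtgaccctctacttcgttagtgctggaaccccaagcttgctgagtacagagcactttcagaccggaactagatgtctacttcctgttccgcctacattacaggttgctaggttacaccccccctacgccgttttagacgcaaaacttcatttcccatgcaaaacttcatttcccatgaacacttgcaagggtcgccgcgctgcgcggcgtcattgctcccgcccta
Rpl11 (chr4:136053364-136053613, minus strand): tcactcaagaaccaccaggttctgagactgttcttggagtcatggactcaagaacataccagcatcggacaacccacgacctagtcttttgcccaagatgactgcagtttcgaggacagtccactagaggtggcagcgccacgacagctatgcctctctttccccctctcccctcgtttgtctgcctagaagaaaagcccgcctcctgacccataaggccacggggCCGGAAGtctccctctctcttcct
Rpl13 (chr8:123102130-123102379, plus strand): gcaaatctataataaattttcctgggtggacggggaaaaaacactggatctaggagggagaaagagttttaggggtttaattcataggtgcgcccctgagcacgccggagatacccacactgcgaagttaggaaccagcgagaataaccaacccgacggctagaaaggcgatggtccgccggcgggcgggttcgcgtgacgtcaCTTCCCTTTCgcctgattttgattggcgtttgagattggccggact
Rpl15 held ETS matches at -157 and -62 and a pyrimidine run from -4, counted as the first base of the match from the gene start, with no position 0. Rps21 held ETS matches at -88 and -26 and no pyrimidine run of this length. Rps6 held an ETS match at -91 and a run from -1, and Rps10 one at -29 and a run from -3. Rpl27a held an ETS match at -169 and a run from -4. In Rpl11 the ETS match began at 7, inside the transcript. The pyrimidines that follow it there reach beyond 20 bases from the start and were not counted as a run. Rpl13 held only a run from -16, and Rps3 held none of the 3 features.

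Peaks had been called in each library on its own, and the deposited fold of a peak compares its summit with the local background in that library. On chromosomes 1 to 19 the untreated list held 68741 peaks and the R848 list 36721, and 9.20% and 22.1% of them lay within 1 kb of an end of a protein-coding gene (gene-end peaks). The depth of the libraries is unknown. Solving each peak's fold and p-value for its pileup, the number of tags stacked at the summit, gave a background of 0.968 tags (untreated) and 1.36 tags (R848), and called peaks began at 4 and 5 tags. The part of this difference in background in the counts below was not tested. Of the macrophage markers 6 of 10 had an untreated and 8 of 10 an R848 gene-end peak, including Spi1, Cebpa, Lyz2 and Cd68 in both. Markers of T and NK cells had 0 and 1 of 8, of B cells 0 and 2 of 6, of neutrophils 2 and 3 of 7 and of stromal and endothelial cells 1 and 1 of 8. The neutrophil markers with peaks were S100a8 and S100a9 in both lists and Camp in the R848 list only. Klrb1c, Cd79a and Cd22 also had an R848 peak only, and Kdr had peaks in both lists that lay apart. Cd3e, Elane and Mpo had no gene-end peak, and neither had the macrophage markers Mertk and Fcgr1.

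Most ribosomal protein genes had a gene-end peak in both libraries. An untreated peak lay at 51 of the 85 members (60.0%), against 32.6% of all protein-coding genes, and an R848 peak at 65 (76.5%), against 41.3%. Peaks of the 2 lists overlapped at 46 members (54.1%, against 26.3% of all genes), 19 members had an R848 peak only (22.4%, against 13.7%), 5 had an untreated peak only (5.88%, against 5.1%), and 15 had neither (17.6%, against 53.6%). No member had peaks in both lists that lay apart, which 1.28% of all genes did. The share with an untreated peak only was thus close to that of all genes, while the 95% Wilson interval of the share with overlapping peaks ran from 43.6% to 64.3% and that of the R848-only share from 14.8% to 32.3%. These intervals cover counting error over genes only.

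Core members carried nearly all of these peaks. Of the 73, 47 had an untreated peak, 61 an R848 peak, 43 overlapping peaks and 8 none. Among the 30 core genes of the small subunit, 22 had overlapping peaks, 5 an R848 peak only and 3 none. The 43 of the large subunit were divided into 21 with overlapping peaks, 13 with an R848 peak only, 4 with an untreated peak only and 5 with none. All 4 core members with an untreated peak only were thus large subunit genes. For this share the Wilson intervals, 3.68% to 21.6% for the large and 0% to 11.4% for the small subunit, overlapped. Both held the 5.1% of all protein-coding genes. The intervals of the share with overlapping peaks, 55.6% to 85.8% for the small and 34.6% to 63.2% for the large subunit, overlapped.

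**Figure D1:**
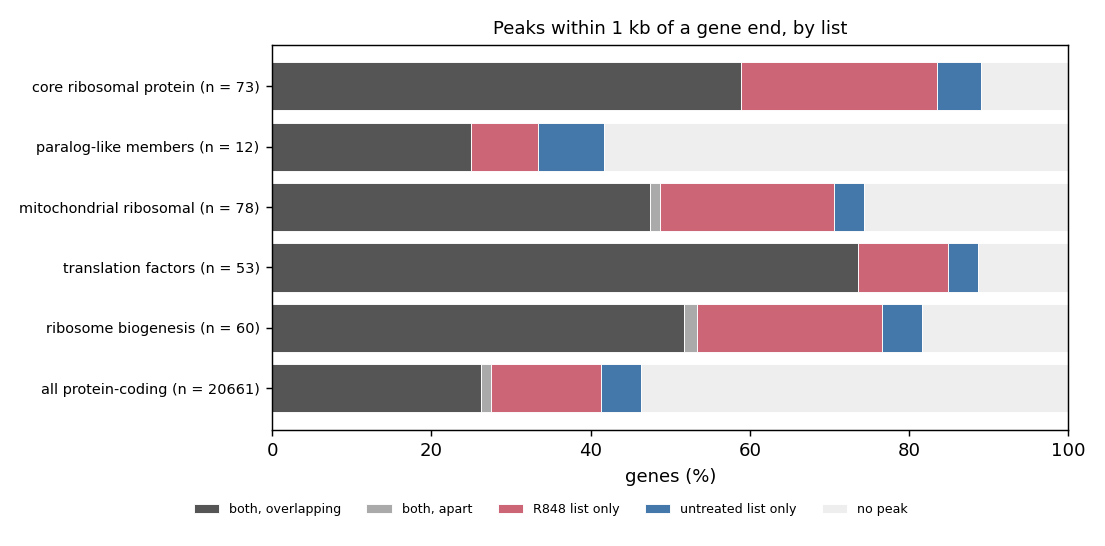
Share of genes (percent, horizontal axis) with gene-end peaks in both lists, in 1 list or in none, for core and paralog-like members, 3 related gene lists and all protein-coding genes, with the number of genes in each label. Core members, with 8 of 73 genes without a peak, stand beside 53.6% of all protein-coding genes without one.

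Several small subunit genes had peaks with folds above 7 in both lists. At Rps29, a small subunit gene mutated in some patients with Diamond-Blackfan anaemia, the fold was 11.9 with 30 tags in the untreated and 12.1 with 40 tags in the R848 library. At Rps21 the untreated peak spanned 180256924 to 180257452 on chromosome 2 with a fold of 9.29 and 20 tags, and the R848 peak 180256929 to 180257454 with 10.6 and 33 tags. Both cover the printed promoter, and their edges differ by a few bases. Rps23, a decoding-centre protein, had 7.62 and 10.4, and Rps12 had 7.08 and 9.94. These 4 genes stood at or above percentile 97.0 of the folds on chromosomes 1 to 19 in each list.

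Other small subunit genes held intermediate peaks in both libraries. Rps6, the S6 kinase substrate, had a fold of 6.06 with 11 tags in the untreated list and 5.51 with 12 tags in the R848 list. Rps19, a gene mutated in Diamond-Blackfan anaemia, had 6.06 and 6.85, with 11 and 19 tags. Rps14, a gene lost in a deletion syndrome of the bone marrow, had 3.56 and 4.92, with 6 and 11 tags. Rps16 had 7.11 and 6.05, with 13 and 14 tags. At the weak end stood Rps15, with an untreated peak of 4 tags and a fold of 2.54 beside an R848 fold of 4.66, and Rps27a, which encodes a fusion of ubiquitin with a ribosomal protein, with 3.05 and 5.79. Another 9 small subunit genes with overlapping peaks (Rps3a1, Rps7, Rps9, Rps13, Rps15a, Rps18, Rps24, Rps25 and Rps26) had untreated folds from 3.56 (Rps25) to 5.08 (Rps18) and R848 folds from 3.66 (Rps25) to 8.0 (Rps3a1). Folds of different lists are given side by side and are not a measured change, since each is relative to the background of its own library.

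Among large subunit genes Rpl15 stood first in the R848 list. Its R848 peak spanned 18270892 to 18271318 on chromosome 14, with a fold of 15.2 and 45 tags, at percentile 99.7. The untreated peak there (18270937 to 18271357) had a fold of 8.40 and 19 tags, at percentile 98.6. An end of Nkiras1, which encodes an inhibitor of NF-kB signalling, lies within 1 kb of both summits, so that these peaks cannot be given to 1 gene alone. Rpl41, which encodes the smallest ribosomal protein, had an R848 peak at its start with 11.1 and 36 tags and an untreated one with 5.59 and 10 tags. Rpl27a led the large subunit genes in the untreated list, with 10.6 and 20 tags, and had 9.06 and 26 tags in the R848 list. At Rpl27 the peak at the gene start had 4.06 with 7 tags and 9.77 with 24 tags, and at Rpl37 the folds were 4.06 and 8.82.

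Further large subunit genes had intermediate or weak peaks. Rpl5, which with Rpl11 restrains the p53 regulator MDM2, had peaks in both lists with folds of 4.57 and 5.09, whereas Rpl11 had an untreated peak only. Rpl13a, which is released from the ribosome to silence inflammatory mRNAs after interferon-gamma, had 6.31 and 5.81 at its start, with 12 and 17 tags. Rpl26 had 3.56 and 5.04 and Rpl10a 3.56 and 5.38. Rpl3, at the peptidyl transferase centre, had 5.08 and 5.09. Rpl28 shared the lowest untreated fold with Rps15, 2.54 with 4 tags, and had 5.26 with 13 tags in the R848 list. Rpl29 had a weak R848 peak, with 3.39 and 7 tags, beside an untreated fold of 4.06. The other 7 large subunit genes with overlapping peaks (Rpl9, Rpl14, Rpl23a, Rpl30, Rpl31, Rpl34 and Rpl37a) had untreated folds from 3.56 (Rpl34) to 6.10 (Rpl14) and R848 folds from 4.2 (Rpl37a) to 6.78 (Rpl30).

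The stalk of the large subunit, which recruits the elongation factors, is built from 3 of the members. Rplp0, its base, had peaks of 4.06 with 7 tags and 6.52 with 17 tags. Rplp2 had 5.59 with 10 tags and 3.81 with 8 tags, with an end of Pidd1 within 1 kb. Rplp1 had an untreated peak with 4.06 and 7 tags and no R848 peak.

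**Figure D2:**
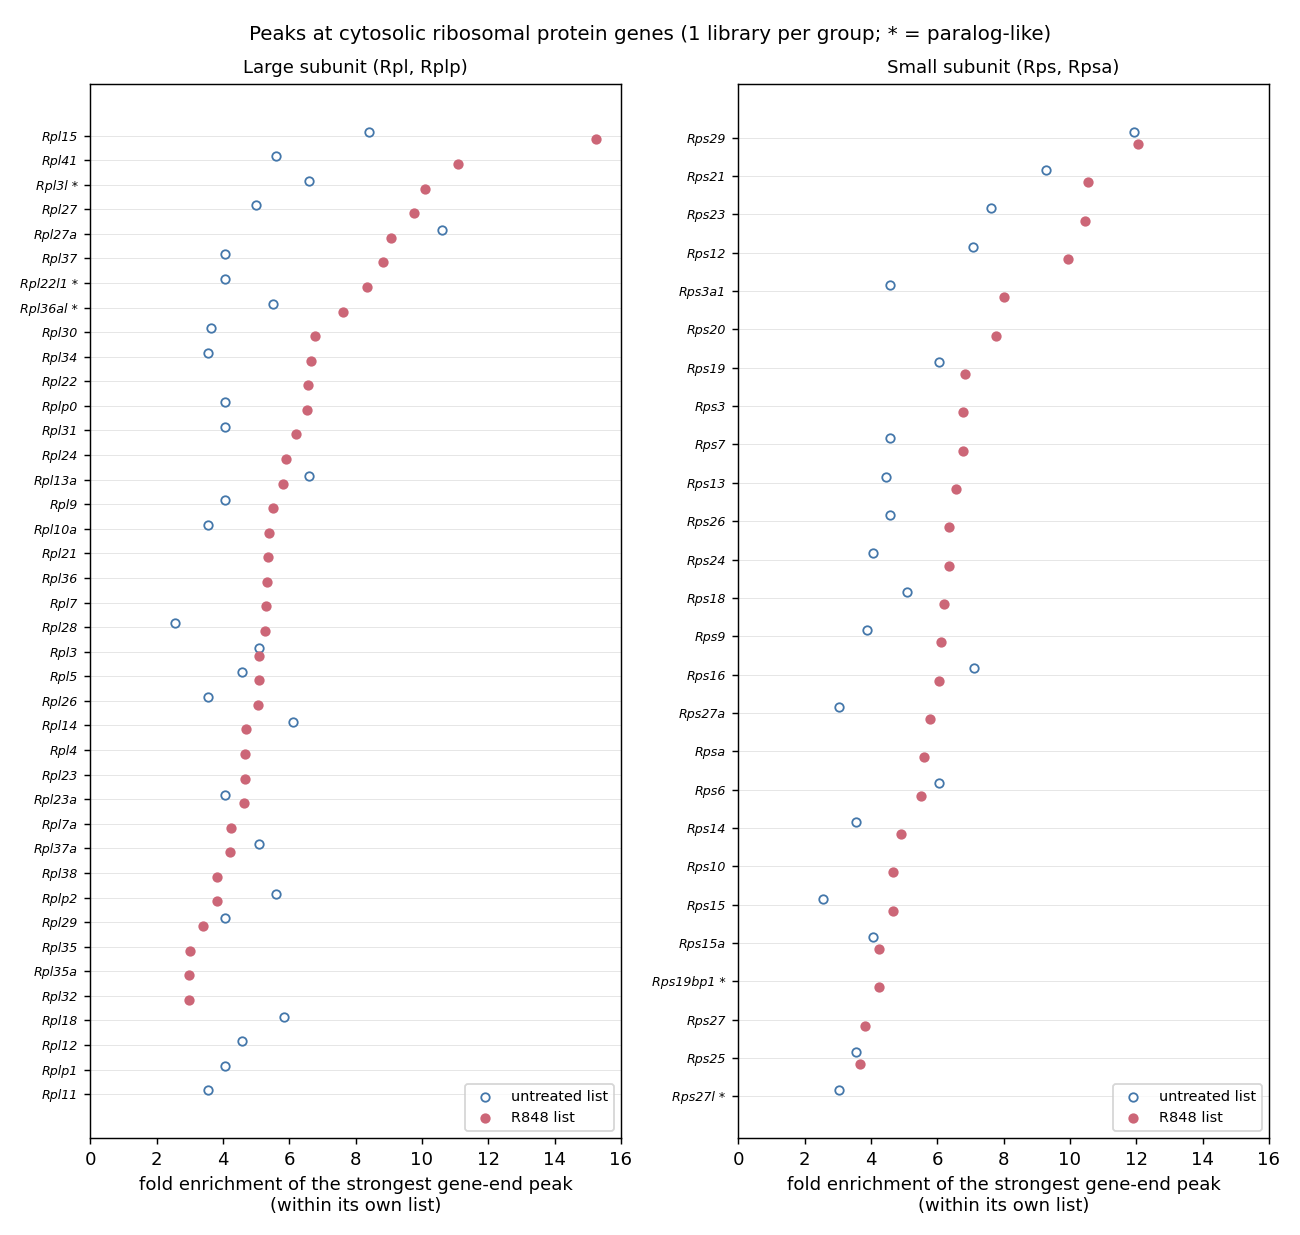
Fold enrichment (horizontal axis, within each list) of the strongest gene-end peak of 66 members with a peak, for large subunit genes on the left and small subunit genes on the right, with open circles for the untreated and filled circles for the R848 library; stars mark paralog-like members. Rpl15 (15.2 in the R848 list) and Rps29 (11.9 and 12.1) stand at the top, and genes with 1 circle had a peak in 1 list only.

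An R848 peak without an untreated one lay at 19 members, 18 of them core. Among the strongest was that of Rps20, at a fold of 7.78 with 20 tags, on chromosome 4 from 3835343 to 3835861. Rps3, whose product also binds the NF-kB subunit p65, had 6.78 and 15 tags (chromosome 7, 99483502 to 99483873), its summit 14 bp downstream of the listed start. The nearest untreated peak lay 51547 bp from that of Rps3 and 61685 bp from that of Rps20. The −log10 q of these peaks, as deposited, was 11.7 for Rps20 and 8.12 for Rps3, in a list where 48.1% of peaks had a q above 0.05.

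Rpl22, Rpl24, Rpsa, Rpl21, Rpl36 and Rpl7 had R848-only folds between 5.30 and 6.57. Rpl22, an RNA-binding protein needed in lymphocyte development, is a special case: its R848 peak (6.57, 17 tags) overlapped an untreated peak that itself lay outside the 1 kb window. Rpsa, also described as a laminin receptor, had 5.60 and 14 tags. At Rpl7 an untreated peak lay 603 bp away, and at the other 17 no untreated peak lay within 1 kb of the strongest R848 peak. Rps10, Rpl4 and Rpl23 each had 4.66 and 10 tags, but the Rpl4 peak lay 824 bp beyond a gene end, near Snapc5. The other 7 were Rpl7a, Rps19bp1, Rps27, Rpl38, Rpl35, Rpl35a and Rpl32, with 6 to 9 tags. Rpl32, Rpl35a and Rpl35 were the weakest, with 2.97, 2.97 and 3.02. Their −log10 q was 0.585, 0.585 and 0.929, which is a q above 0.05. Peaks were counted at any q. Among members with overlapping peaks, a q above 0.05 also belonged to the untreated peaks of Rpl28, Rps15 (−log10 q 0.321 each) and Rps27a (0.783). The same held for the R848 peak of Rpl29 (1.17).

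The R848 peaks of R848-only members had lower folds than those of members with overlapping peaks, without a test. The median R848 fold was 4.66 for the 19 and 6.20 for the 46, against 3.83 and 6.36 for the 2838 and 5426 genes of these kinds in all. The median pileup of the 19 was 10 tags, with a range of 6 to 21, against 14.5 tags at the 46.

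An untreated peak without an R848 one lay at 5 members. Rpl18 had the strongest, with 5.83 and 11 tags (chromosome 7, 45715248 to 45715575), and the nearest R848 peak was 2239 bp away. The summit of this Rpl18 peak lay 59 bp from a gene end but 2663 bp upstream of the listed start. Rpl12, named here after its value was seen, had 4.57 and 8 tags, Rplp1 4.06 and 7 tags, and Rpl11 3.56 and 6 tags (chromosome 4, 136053385 to 136053584). Rps27l, a paralog of Rps27 induced by p53, had 3.05 and 5 tags, 1098 bp from the gene's end. The −log10 q of this Rps27l peak was 0.783, a q above 0.05. Peaks of the untreated list began at 4 tags and had a median of 7, so Rps27l and Rpl11 lay below that median, and Rpl18 and Rpl12 above it, at percentiles 94.2 and 84.1 of the folds.

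No peak lay at the ends of 15 members. The 8 core genes included Rpl6, Rpl8, Rpl13, Rpl17, Rpl19, Rps2 and Rps28. These are genes of required ribosomal proteins, and an absent peak is no measurement of a closed promoter. The other 7 were the testis-expressed retrogene Rpl10l, Rpl39l, Rpl7l1, Rpl32l, Rpl37rt, Rps23rg1 and Rps27rt. Of the 12 paralog-like members, 3 had overlapping peaks: Rpl22l1 (4.06 and 8.33), Rpl36al (5.50 and 7.63, near an end of Mgat2) and Rpl3l (6.60 and 10.1). Rpl3l is the paralog of striated muscle, and its peak lay 371 bp beyond the gene on chromosome 17 in the R848 list, within 1 kb of an end of Msrb1.

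Several members had more than 1 gene-end peak. In the untreated list these were Rps9, Rpl13a, Rpl41, Rpl27 and Rps18, and in the R848 list Rps9, Rpl13a, Rpl41, Rpl22, Rpl32 and Rpl35, each with 2. At Rpl41 the second peak, with 5.59 and 4.73, lay near an end of Zc3h10. Of the members with peaks, 18 had a summit within 1 kb of an end of another protein-coding gene. Without such peaks 37 members had overlapping peaks (43.5%, against 17.9% of all genes) and 29 had none (34.1%, against 64.9%).

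Shared peaks were paired by their overlap, which by itself keeps their summits close, and no distance over all genes stands beside the values here. Over the 49 overlapping pairs of peaks at members the summits were a median of 65.0 bp apart, from 2 to 327 bp. The pileup was higher in the R848 library in 43 of the 49 pairs, beside a background of 1.36 against 0.968 tags, whose part was not tested. This difference was not particular to members. Median pileups at the 46 members with overlapping peaks were 8 tags (untreated) and 14.5 tags (R848). At all 5426 genes with overlapping peaks they were 9 and 16 tags. RefSeq promoter entries gave a start for 65 members. Of the strongest peaks, the summit lay within 500 bp of a listed start in 34 of 40 members in the untreated list and 45 of 49 in the R848 list (85.0% and 91.8%, against 78.1% and 82.4% for all genes). The median position of these was -59.0 and -39.0 bp, negative values being upstream, against -63.0 and -56.0 bp for all genes. In the R848 list 31 of the 49 summits lay within 100 bp of the start, against 3044 of 6973 for all genes. The untreated list had 19 of 40, against 2202 of 5560 for all genes.

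**Figure D3:**
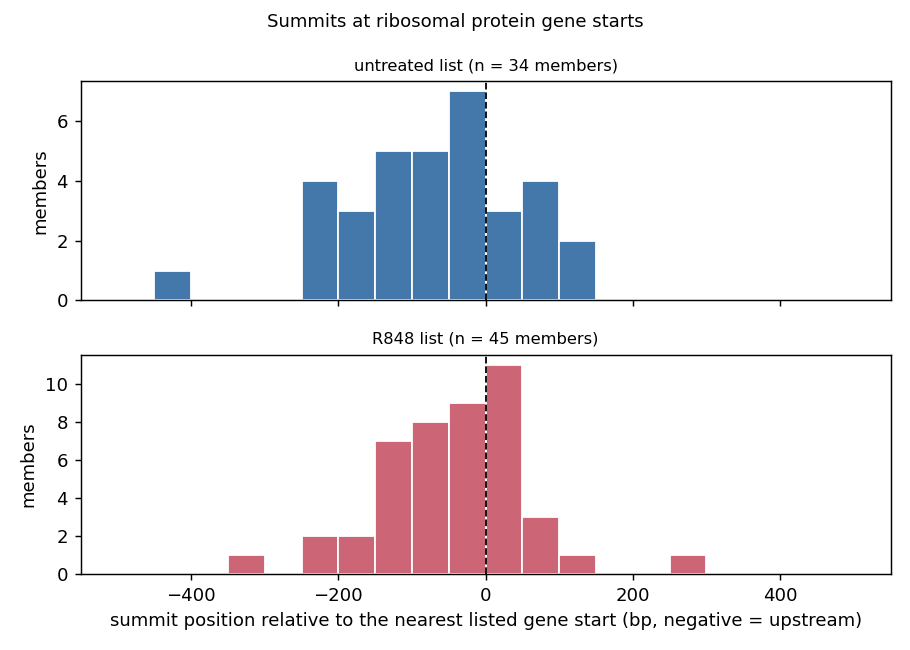
Number of members (vertical axis) by the distance of the strongest peak's summit from the nearest listed gene start (bp, in bins of 50, negative upstream), above for the untreated and below for the R848 list. Most summits fall just upstream of the start or on it, with medians of -59.0 and -39.0 bp.

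Of the untreated peaks at members, 48 of 55 (87.3%) were overlapped by an R848 peak, against 75.2% of all untreated gene-end peaks. Of the R848 peaks, 49 of 70 (70.0%) overlapped an untreated peak, against 58.2%. Among peaks with a −log10 q of at least 5 the order turned, with 80% against 90.6% for untreated and 31.0% against 37.3% for R848 peaks. The folds of member peaks had medians of 4.57 in the untreated and 5.51 in the R848 list, against 4.06 and 4.92 for all gene-end peaks. Sharing followed strength. All 13 member peaks with an R848 fold of at least 8 were shared, 14 of 17 with 6 to 8, 18 of 28 with 4 to 6, and 4 of 12 with less than 4. For all gene-end peaks the shares were 96.4%, 83.1%, 58.7% and 24.5%, so within a class of strength members lay within 10 percentage points of all genes in the R848 list. Among untreated peaks with a fold under 4, 11 of 14 were shared at members (78.6%) and 52.6% at all genes.

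**Figure D4:**
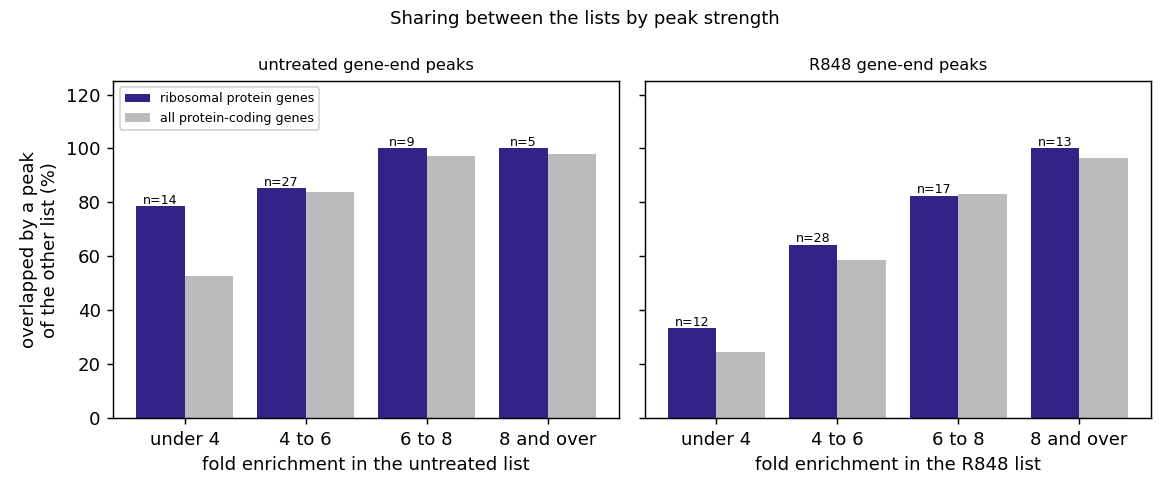
Percent of gene-end peaks overlapped by a peak of the other list (vertical axis) in 4 classes of fold, for untreated peaks on the left and R848 peaks on the right, with the number of member peaks above each dark bar. Sharing rises with fold for members and for all genes alike, from 33.3% to 100.0% of member peaks in the R848 list.

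The promoters shared sequence features that the rule did not use. Matches were counted in the 300 bases from 250 before to 50 after the most upstream listed start, on both strands. The ETS core CCGGAAG was in 22 of 53 core promoters with an entry (41.5%, Wilson interval 29.3% to 54.9%), against 12.3% of 16456 promoters and 20.3% of the 6973 with an R848 gene-end peak. A pyrimidine run of at least 8 bases beginning with C within 20 bases of the start, searched on the gene's strand, was in 25 of 53 (47.2%, 34.4% to 60.3%), against 12.9% and 13.1%. The base at the listed start was C in 37.7%, against 13.8% of all. The YY1 core AAGATGG was in 9 of 53 (17.0%, 9.20% to 29.2%), against 6.40% and 7.57%.

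The other motifs had intervals that held both comparison shares. The SP/KLF box GGGCGG was in 58.5% of core promoters, against 47.3% of all and 66.3% of those with an R848 peak. CCAAT, bound by NFY, was in 30.2% against 39.1%, the TATA box TATAAA in 7.55% against 13.5%, the E-box CACGTG, the site of MYC, in 9.43% against 7.97%, and the palindromic NRF1 motif in 7.55% against 6.88%. TGANTCA, bound by AP-1, was in 1 of 53, with an interval of 0.334% to 9.94% that held the 7.12% of all promoters. The NF-kB motif was in 0 of 53, and in 0.401% of all promoters, too few for a comparison over 53. A match is a description of letters and no match says nothing of binding. ETS matches fell on 14 of 33 core promoters with overlapping peaks, 4 of 12 with an R848 peak only and 3 of 5 with none, and pyrimidine runs on 17 of 33, 6 of 12 and 1 of 5. The median number of CpG in the 300 bases was 22 for core members and 14 for all genes, at a GC content of 59.0% and 56.7%.

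**Figure D5:**
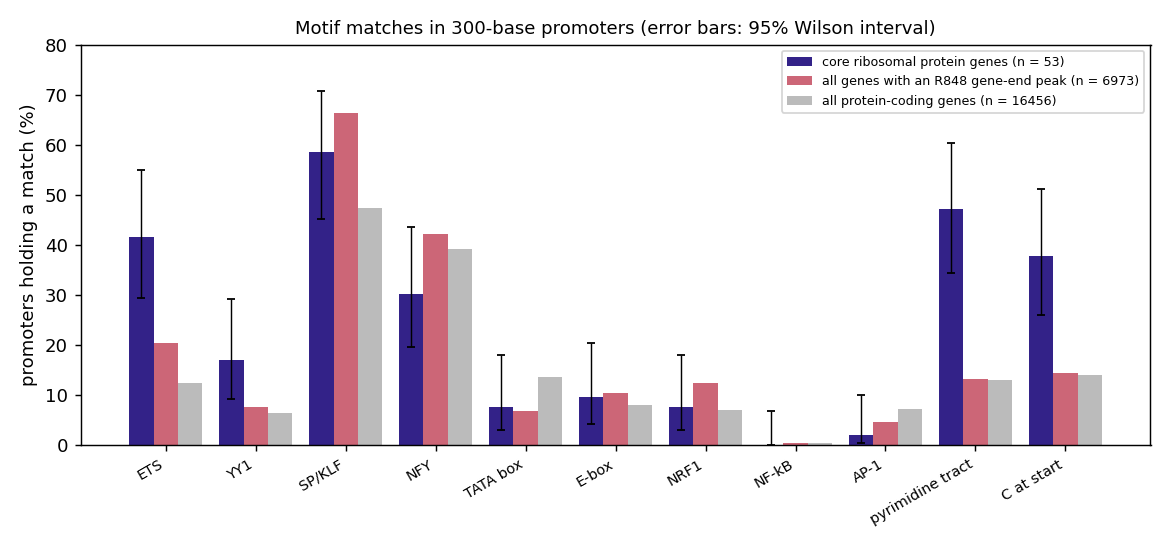
Percent of 300-base promoters with a match (vertical axis) for each motif, the pyrimidine run and a C at the start, in 53 core members (with 95% Wilson intervals), the 6973 genes with an R848 gene-end peak and all 16456 genes. The ETS core (41.5%), the YY1 core (17.0%), the pyrimidine run (47.2%) and C at the start (37.7%) have intervals above both comparison bars.

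Member genes also share their layout. They had a median length of 3230 bp, against 17491 bp for all protein-coding genes, and 28 of 85 (32.9%) held at least 1 annotated snoRNA gene within their ends, against 1.72% of all. The 28 hosts, all core members, held 57 snoRNA genes, with 5 in Rpl4 and 4 in Rpl7a and in Rpl13a. Of these 28 hosts 13 had overlapping peaks, 9 an R848 peak only, 1 an untreated peak only and 5 none. Over all 85 members these numbers were 46, 19, 5 and 15, and over all protein-coding genes 26.3%, 13.7%, 5.1% and 53.6%. The same count over all 355 genes that hold a snoRNA gene was not made, so nothing about hosts is read from it. By RefSeq names, 57 members had at least 1 pseudogene named after them, 297 in all and 23 each for Rps12 and Rpl31. Reads from exons can be shared with such copies, and how the authors placed them was not given in the sources used here.

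Gene-end peaks were also common at 3 related lists of genes, for the mitochondrial ribosome, translation factors and ribosome biogenesis. Of 78 mitochondrial ribosomal protein genes, 41 had an untreated and 55 an R848 peak, 37 overlapping, 17 R848 only, 3 untreated only and 20 none. Translation factors, which load mRNA and tRNA on the ribosome, had overlapping peaks at 39 of 53, an R848 peak only at 6, an untreated peak only at 2 and none at 6. Eif3f, an initiation factor subunit, had folds of 8.19 and 13.8, the release factor gene Etf1 7.11 and 10.9, and Eif4a1, the initiation helicase, 8.82 and 10.1. Larp1, which binds oligopyrimidine mRNAs, had no gene-end peak, and Rack1, a scaffold on the small subunit, had an untreated peak only (4.06).

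Ribosome biogenesis genes had overlapping peaks at 31 of 60, an R848 peak only at 14, an untreated peak only at 3, peaks apart at 1 (Nop2) and none at 11. Npm1, the nucleolar chaperone nucleophosmin, had 7.50 and 11.02, Ncl, which encodes nucleolin, 4.06 and 7.63, and Fbl, the rRNA methyltransferase fibrillarin, 4.57 and 7.58. The R848-only genes included Sbds (7.0), a gene of ribosome maturation, Nop16 (8.06) and Gtpbp4 (7.19). The Wilson intervals of the share with overlapping peaks were 43.6% to 64.3% for the members, 36.7% to 58.4% for mitochondrial ribosomal proteins, 60.4% to 83.6% for translation factors and 39.3% to 63.8% for biogenesis genes, and each overlapped that of the members. None of the 4 intervals reached the 26.3% of all protein-coding genes.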

How the data were processed

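Accessibility was measured in 2 ATAC-seq libraries. Per the labels' protocols, lysed cells were tagmented with a commercial ATAC kit. Per the submitters' processing notes, the tools were MACS2 2.2.7.1, Bowtie2 2.2.6 and bcl2fastq 2.19, and the build was mm10. Settings, read filters, handling of duplicates and any insertion shift are not given in the sources used here. For every peak the authors deposited the fold (a ratio) of the summit over background, −log10 p, −log10 q, a score, which was not used, and the summit.

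Members and lists were chosen with earlier results of these data known. Members had a gene-end peak when a peak overlapped 1 kb around either RefSeq gene end (GRCm38.p6), and peaks were shared at an overlap of at least 1 bp. Pileups were solved from fold and p, taken as a Poisson tail, within 0.1% of the −log10 p, for 99.9% of peaks in each list. The median peak on chromosomes 1 to 19 held 7 and 8 tags, which limits single weak peaks. Intervals are 95% Wilson intervals and cover counting error. The script was tested on simulated data. Scripts ran in Python 3.11.15 with scipy 1.17.1, pandas 2.3.3 and numpy 2.4.6, and figures were drawn with matplotlib 3.10.9.

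Named were the 6 highest and 4 lowest folds per list, the 12 strongest members with a peak in 1 list, those without a peak, those with several peaks and a set chosen by role. The other members are named to account for the list. A few members enter every count, but their own values are not reported here. Paralog-like genes were listed by hand, with 3 genes added and 1 dropped after the gene table was read. Classes of strength, the C at the start, the promoters with an R848 peak and the counts of snoRNA genes, pseudogenes and neighbours were added after seeing the data. Symbols ending in -ps and a number were left out.

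Promoters are RefSeq entries, which 65 of 85 members had. Those without one include Rps29, Rpl30, Rps27a, Rpl7, Rpl36, Rps20, Rplp1, Rpl8, Rps14, Rpl23a, Rpl21, Rpl29, Rpl3, Rpl17 and Rpl32. Alternatives covered the window, gene start, strength, list length, overlap and members.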

Additional observations from a re-analysis of the deposited data

How the results depend on the processing

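The 10 main values were recomputed under 10 alternatives, 2 of them chosen after seeing the data (with the 2 -ps genes, and without peaks near another gene). Requiring a −log10 q of at least 5 left 15 members with an untreated peak (17.6%, against 8.91% of all genes), 42 with an R848 peak (49.4% against 21.2%), 12 with overlapping peaks (14.1% against 8.17%), 3 with an untreated peak only (3.53% against 0.697%), 30 with an R848 peak only (35.3% against 13.0%) and 40 with none (47.1% against 78.1%). The untreated-only share was thus further above that of all genes than in the main setting. The shares of overlapped peaks fell below those of all genes, at 80% against 90.6% for untreated and 31.0% against 37.3% for R848 peaks. Percentiles were ranked anew among the peaks kept, so they cannot be set beside those of the main setting. Their median was 54.5 for untreated and 44.7 for R848 peaks, below the 58.0 and 57.3 of all genes. The cause was not tested. With gene starts only, 3 of the 65 members with a listed start had an untreated peak only (4.62% against 3.90%) and 11 an R848 peak only (16.9% against 13.9%, nearer to all genes than in the main setting). An untreated list shortened to the length of the R848 list left 3 with an untreated peak only (3.53% against 2.38%). The median percentile of untreated peaks, ranked anew in that list, turned, at 74.3 against 81.2 for all genes. That percentile equalled that of all genes, 84.1, with gene starts only and within 250 bp of gene ends. Within 2 kb the untreated-only share was below that of all genes, at 4.71% against 7.32%. A reciprocal overlap of 50.0% lowered the shared untreated peaks to 72.7% (55.1% of all genes). Leaving out paralog-like members left 8 of 73 with no peak, and leaving out peaks near another gene raised this number to 29 of 85. The other 85 values stayed within 1.5 times for counts and within the interval of the main value for shares and percentiles, which does not cover their order against all genes.

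No paired analysis was possible because each group has 1 library and the labels give no replicate numbers. Depth limits weak peaks most, since a peak of 4 or 5 tags could be called and the members found in the untreated list only rest on 5 to 11 tags.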

Other observations

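Other genes of cytosolic ribosomal proteins fell outside the rule by name or chromosome. Fau, on chromosome 19, encodes a ubiquitin-like protein fused to a small subunit protein and had an untreated peak with a fold of 5.08 and 9 tags (6057658 to 6058049) and an R848 peak with 7.48 and 18 tags (6057680 to 6058100). Among the X-linked genes, Rpl10 had 4.06 with 7 tags and 4.24 with 9 tags, Rpl39 and Rpl36a had an R848 peak only (6.78 and 4.24), and Rps4x had no peak. The 2 protein-coding genes Rpl34-ps1 and Rpl31-ps12 had no peak in either list.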
